A study of Mus musculus with 4 samples.

Results

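The 8 genes described here were Neurog3, Sohlh1, Sohlh2, Sox3, Onecut2, Upp1, Ddit4 and Igfbp6, of 27514 genes listed in all 4 libraries. They were picked by symbol as genes of spermatogonia that leave the stem state, with their level after busulfan (BU) against control (CTRL) in view, so their BU against CTRL values are a description and carry no test. Their step from Gfra1+ to Gfra1-negative cells is given in the same way. The cells were A_undiff (undifferentiated spermatogonia) from testes of adult C57BL/6J mice of 6 to 8 weeks, sorted as positive for E-cadherin and CD49f and negative for c-KIT. CTRL mice were untreated, and BU mice received a single dose of 10 mg/kg busulfan, an alkylating drug that kills most spermatogonia, and were taken at day 10. Each of the 2 experiments gave a CTRL and a BU library, each from the pooled cells of 3 mice, so a group holds n = 2 libraries and the mice within a library cannot be told apart. The BU libraries hold cells that survived the drug or descend from such cells. The libraries held 21136369 to 53579969 UMIs (unique molecular identifiers, counts of captured RNA molecules), and 7493 cells passed the limits of over 1000 genes and under 20% mitochondrial UMIs.

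A_undiff hold stem cells that self-renew and progenitors that are primed to differentiate but have not yet done so. The receptor GFRA1 marks the stem-rich end, and progenitors lose it as they gain transcription factors such as NEUROG3 and SOX3. Retinoic acid then moves progenitors into differentiation, when they gain the receptor KIT. NEUROG3, SOHLH1 and SOHLH2 are basic helix-loop-helix factors, a class of proteins that bind DNA at E-boxes of the form CANNTG. SOX3 is an SRY-related factor and ONECUT2 a homeodomain factor. UPP1 is uridine phosphorylase, which splits uridine in pyrimidine salvage. DDIT4, also called REDD1, restrains the growth kinase complex mTORC1. IGFBP6 is a secreted protein that binds insulin-like growth factors, IGF2 above all.

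On GRCm38, Neurog3 lies at chr10:62133090-62134763, Sohlh1 at chr2:25842995-25847248, Sohlh2 at chr3:55182028-55209957 and Sox3 at chrX:60891366-60893430. Upp1 lies at chr11:9118103-9136170, Ddit4 at chr10:59949669-59951834 and Igfbp6 at chr15:102144362-102149511. All 8 are protein coding, and Neurog3 alone overlaps another annotated gene, Fam241b on the other strand. Whether the counting used strand is not given in the sources used here, so reads of that overlap are uncertain.

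Start-site windows of RefSeq (GRCm38.p6, 250 bases before to 50 after the start) were given for 6 of the 8 genes and not for Sox3 and Onecut2. The windows of the 3 basic helix-loop-helix genes are printed 5′ to 3′, since these factors bind E-boxes and are set side by side in the results, with every CANNTG (the same on both strands) in capitals. The Neurog3 window is chr10:62132840-62133139 on the plus strand, that of Sohlh1 chr2:25847199-25847498 on the minus strand and that of Sohlh2 chr3:55181794-55182093 on the plus strand.
Neurog3: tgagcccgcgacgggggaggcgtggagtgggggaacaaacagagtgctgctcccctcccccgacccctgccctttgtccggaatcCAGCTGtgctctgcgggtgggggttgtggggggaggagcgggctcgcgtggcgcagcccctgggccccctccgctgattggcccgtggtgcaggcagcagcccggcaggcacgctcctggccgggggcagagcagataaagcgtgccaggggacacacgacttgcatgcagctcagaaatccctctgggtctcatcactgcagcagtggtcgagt
Sohlh1: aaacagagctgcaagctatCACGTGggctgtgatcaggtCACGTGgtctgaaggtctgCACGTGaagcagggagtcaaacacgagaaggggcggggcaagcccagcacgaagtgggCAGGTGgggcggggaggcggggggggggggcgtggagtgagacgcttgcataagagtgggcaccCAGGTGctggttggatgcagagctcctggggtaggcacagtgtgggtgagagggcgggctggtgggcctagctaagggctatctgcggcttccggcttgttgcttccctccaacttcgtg
Sohlh2: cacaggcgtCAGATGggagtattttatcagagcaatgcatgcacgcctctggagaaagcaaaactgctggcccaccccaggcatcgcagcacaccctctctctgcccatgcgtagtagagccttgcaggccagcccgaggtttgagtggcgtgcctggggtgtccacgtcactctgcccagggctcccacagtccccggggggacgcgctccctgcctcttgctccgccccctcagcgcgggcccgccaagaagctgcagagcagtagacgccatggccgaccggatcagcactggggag
The Sohlh1 window held 5 E-boxes, 3 of them CACGTG, and those of Neurog3 and Sohlh2 held 1 each and no CACGTG. Among all 32851 windows of the table, 72.3% held a CANNTG, 2.10% held 5 or more, 7.15% held a CACGTG and 0.0883% held 3 or more of it. CACGTG is a subset of CANNTG, so the counts overlap. The Upp1 windows held 1 or 2 E-boxes, that of Igfbp6 held 1 and that of Ddit4 none. A match of letters is a description of the window and not a binding site.

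CTRL 2 and BU 2 shared 677 cell barcodes, where other pairs of libraries shared 0 to 11. Of the shared barcodes, 70 passed in both libraries, with 1 copy of each shallow (medians of 2046 and 2136 UMIs) and the other deep (medians of 127022 and 155802), and they held 8.76% of the passing UMIs of CTRL 2 and 14.7% of those of BU 2. Levels are given as CPM, a gene's UMIs summed over a library's passing cells and scaled to a common library total, after TMM, a correction for uneven composition of libraries. In such sums fewer cells with a gene's RNA and less RNA per cell cannot be told apart. The sums of markers that follow are in CPM without TMM. Pan-undifferentiated markers (Zbtb16, Sall4, Foxo1, Ddx4, Cdh1 and Itga6) summed to 595 to 838 CPM and none was at 0 in any library. Spermatid markers (8 genes) summed to 3005 and 17929 CPM in CTRL and 1069 and 9217 in BU, and 17 somatic markers to 57.8 and 280 CPM in CTRL and 43.6 and 124 in BU, with Cyp17a1 and Insl3 at 0 in both libraries of experiment 1. Their part in the results below was not tested. The main fits and the count of gene pairs over all cells were repeated without the cells rich in them. The shares of cells, the genes per cell, the correlations and the pairs within a Gfra1 state were not.

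Over all passing cells, 7 of the 8 genes were lower in BU than in CTRL in both experiments, and Sohlh2 was higher in both. A loss after busulfan is therefore not what the data show for Sohlh2. The median log2 fold change of the 8 genes was -2.21, beside 0.07 over all 17354 genes tested.

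**Figure D1:**
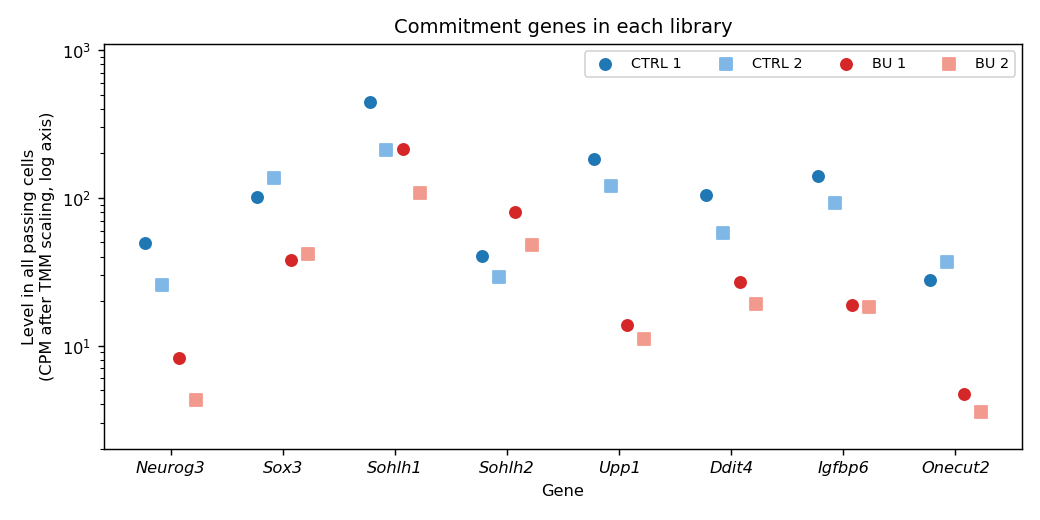
Level of each of the 8 genes over all passing cells of each library, in CPM after TMM scaling on a log axis, with 1 point per library (circles experiment 1, squares experiment 2, blue CTRL, red BU). Both BU points lie below both CTRL points for 6 genes, the groups overlap for Sohlh1, and for Sohlh2 both BU points (48.3 and 80.0 CPM) lie above both CTRL points (29.2 and 40.2).

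Neurog3, which marks spermatogonia leaving self-renewal, was at 49.8 and 25.5 CPM in CTRL 1 and CTRL 2 and at 8.28 and 4.27 CPM in BU 1 and BU 2. Both BU libraries lay below both CTRL libraries, by 6.01-fold within experiment 1 and 5.98-fold within experiment 2 (log2 fold change -2.59, SE 0.57, edgeR). The log2 fold changes and SEs of the 8 genes over all passing cells are from the fit without a term for the experiment. The CTRL libraries differed from each other about as the BU libraries did, with experiment 1 higher in both groups.

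Sohlh1, which is needed for the step from undifferentiated to differentiating spermatogonia, was at 443 and 211 CPM in CTRL and 215 and 108 CPM in BU. CTRL 2 and BU 1 lay at nearly the same level, so the groups overlapped, although BU was 2.06-fold lower within experiment 1 and 1.96-fold lower within experiment 2 (log2 fold change -1.02, SE 0.54). Its partner Sohlh2 was at 40.2 and 29.2 CPM in CTRL and 80.0 and 48.3 CPM in BU. Both BU libraries lay above both CTRL libraries, by 1.99-fold and 1.65-fold within the experiments (log2 fold change 0.89, SE 0.39).

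Sox3, an X-linked factor of progenitors, was at 102 and 136 CPM in CTRL and 37.9 and 41.8 CPM in BU, with no overlap (log2 fold change -1.58, SE 0.30). Onecut2 was at 27.9 and 37.0 CPM in CTRL and 4.73 and 3.56 CPM in BU, again without overlap (log2 fold change -2.97, SE 0.39). For Sox3 and Onecut2 it was the CTRL library of experiment 2 that was the higher one, unlike for the other genes.

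Upp1 had the largest difference of the 8, at 183 and 120 CPM in CTRL and 13.8 and 11 CPM in BU, which is 13.3-fold and 10.9-fold lower within the experiments (log2 fold change -3.61, SE 0.38). Igfbp6 was at 141 and 92.4 CPM in CTRL and 18.7 and 18.2 CPM in BU (log2 fold change -2.66, SE 0.35). Ddit4 was at 105 and 58.1 CPM in CTRL and 26.9 and 19.0 CPM in BU (log2 fold change -1.83, SE 0.43). None of the 3 overlapped between the groups.

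Over all genes tested, 13.5% had both BU libraries below both CTRL libraries and 19.9% had both above, beside 6 and 1 of the 8. At an adjusted p under 0.05, edgeR called 0 of 17354 genes (0%) without a term for the experiment, 926 at an unadjusted p, and DESeq2 called 120. With the experiment as a replicate block 258 were called (1.49%), 111 of them higher (0.640%) and 147 lower (0.847%), and the latter held 7 of the 8 genes, all but Sohlh2. The genes were chosen on this contrast, so nothing is read from that count. Left out of both libraries, the shared barcodes took the log2 fold change of Neurog3 to -2.76, of Upp1 to -3.77, of Sohlh1 to -1.15 and of Sohlh2 to 0.78. Left out, cells rich in spermatid or somatic RNA took the same values to -2.70, -3.73, -1.13 and 0.76.

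Among 10 other genes linked to progenitors, 3 fell and 1 rose with the replicate block (0 without it), with a median log2 fold change of -0.41 beside 0.04 over all genes. Rarg, the retinoic acid receptor of progenitors, fell by 1.80 (SE 0.28, adjusted p = 0.0355), Lin28a by 1.75 (SE 0.22, adjusted p = 0.0289) and Nanos3 by 1.69 (SE 0.23, adjusted p = 0.0289) on the log2 scale. Ccnd2, a G1 cyclin on the same list, rose by 1.23 (SE 0.17, adjusted p = 0.0298). These SEs are with the block, whereas those of the 8 genes above are with condition only, so the 2 are not comparable. Neurog3 and Sohlh1 had SEs of 0.27 and 0.17 with the block, and Rarg 0.44 with condition only. Stem markers had 3 of 12 higher with the block (Lhx1 2.43, Bcl6b 1.60 and Gfra1 1.32 on the log2 scale) and differentiation entry genes 2 of 8 (Kit 3.03 and Stra8 1.27). Over all genes 1.49% were called with the block. The progenitor, stem and differentiation entry lists were drawn up with earlier results of these data known. Their calls and p-values are therefore a description, as for the 8 genes.

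Few pathway neighbours of the 8 genes were called with the block, where 1.49% of all genes were called. At that share, lists of 6 to 14 genes would mostly hold no call, so nothing is read from its absence. Of 14 mTORC1 inputs, the pathway that DDIT4 restrains, none passed (median log2 fold change -0.08 with the block, and Rheb, the highest expressed, 0.34 with SE 0.18). Of 12 measured IGF axis genes none passed (median 0.02, with Igfbp2 at -0.34, SE 0.19). Igf2, whose protein IGFBP6 binds above all, had the largest change on that list, at 2.62 with the block (SE 0.87, adjusted p = 0.172, edgeR). Of 6 SOX and ONECUT relatives none passed (median -0.06, with Sox4 at -0.15, SE 0.18). Of 12 pyrimidine salvage and synthesis genes 1 rose, the thymidine kinase Tk1 (1.47, SE 0.25, adjusted p = 0.0453), which is also an S phase gene. Of 10 basic helix-loop-helix partners and inhibitors 1 fell, the neurogenic factor Neurod1 (by 3.61, SE 0.49, adjusted p = 0.0289), with a mean of only 1.23 CPM over all 4 libraries. These lists were drawn up with earlier results of these data known.

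The same contrast was then read within Gfra1+ and Gfra1-negative cells, because the Gfra1+ share itself differed between the groups. A cell was Gfra1+ where the natural log of 1 plus 100000 times its share of Gfra1 UMIs was above 2, which took in 18.9% and 19.1% of cells in CTRL and 43.1% and 41.9% in BU. A single Gfra1 UMI sufficed in 96.9% and 90.3% of cells of CTRL 1 and BU 1 but in 17.0% and 13.9% of CTRL 2 and BU 2, so the gate was stricter in the deeper experiment. In CTRL 2 and BU 2, 396 and 786 cells held a Gfra1 UMI and 214 and 529 were Gfra1+. In CTRL 1 and BU 1 these numbers were 598 and 916 against 585 and 866. Gfra1-negative cells of experiment 2 therefore include many with some Gfra1 RNA. Each of the 7 lower genes was lower in BU in both kinds of cell and in both experiments, and Sohlh2 was higher in both. Gfra1-negative cells past the same threshold for Kit (Kit+) numbered 31 in each CTRL library and 280 and 132 in BU. Split by Kit, Sohlh2 stayed higher in BU within each experiment, but the groups overlapped. Sohlh1 in Kit+ cells of experiment 2 was at 193 CPM in CTRL and 194 in BU, and the other lower genes stayed lower. The part of this mix in the contrast was not tested.

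Scaled together over both kinds of cell, Upp1 was at 67.2 and 46.1 CPM in Gfra1+ cells and 208 and 140 CPM in Gfra1-negative cells of CTRL. In BU it was at 7.88 and 6.53 CPM in Gfra1+ cells and 17.7 and 15.5 CPM in Gfra1-negative cells. Gfra1-negative cells after busulfan thus held less Upp1 RNA than Gfra1+ cells of CTRL.

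Igfbp6 had the same order, with 24.3 and 25.1 CPM in Gfra1-negative BU cells against 42.0 and 27.5 CPM in Gfra1+ CTRL cells. Neurog3 was at 18.2 and 9.08 CPM in Gfra1+ CTRL cells and 11.7 and 5.98 CPM in Gfra1-negative BU cells, so those levels overlapped. Onecut2 was at 12.6 and 15.6 CPM in Gfra1+ CTRL cells and 5.53 and 4.07 CPM in Gfra1-negative BU cells, which did not overlap.

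Scaled within each kind of cell, Ddit4 differed least among the lower genes that did not overlap in Gfra1+ cells, at 45.5 and 26.6 CPM in CTRL and 17.7 and 20.5 CPM in BU, which is 2.57-fold and 1.3-fold lower within the experiments. In Gfra1-negative cells the fold was 3.54 and 3.46. Sohlh2 was at 41.3 and 38.1 CPM in CTRL and 85.8 and 56.1 CPM in BU among Gfra1+ cells, and at 39.5 and 27.6 CPM against 72.9 and 45.0 CPM among Gfra1-negative cells.

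Over all genes, both BU libraries lay below both CTRL libraries for 16% in Gfra1+ cells and 12.9% in Gfra1-negative cells, and the same 6 of the 8 did so in each. Both lay above for 15.9% and 19.5%, and Sohlh2 did so in each. edgeR called 0 genes in either (586 and 803 at an unadjusted p), and DESeq2 15 and 60. With the replicate block 10 genes were called in Gfra1+ cells (0.0734%), 6 higher (0.0440%) and 4 lower (0.0293%), the latter with Upp1 among them, and 0 in Gfra1-negative cells (2362 at an unadjusted p).

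In CTRL, 7 of the 8 genes were higher in Gfra1-negative than in Gfra1+ cells of the same library in both libraries, and Sohlh2 was not. The genes were chosen as genes of cells that leave the stem state, with earlier results of these data known, so the direction of this step was part of the choice and is no finding. Over all genes, edgeR called 0 of 16753 genes (0%) in CTRL and 0 in BU, with 3839 and 5163 at an unadjusted p, where DESeq2 called 1006 and 1621.

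**Figure D2:**
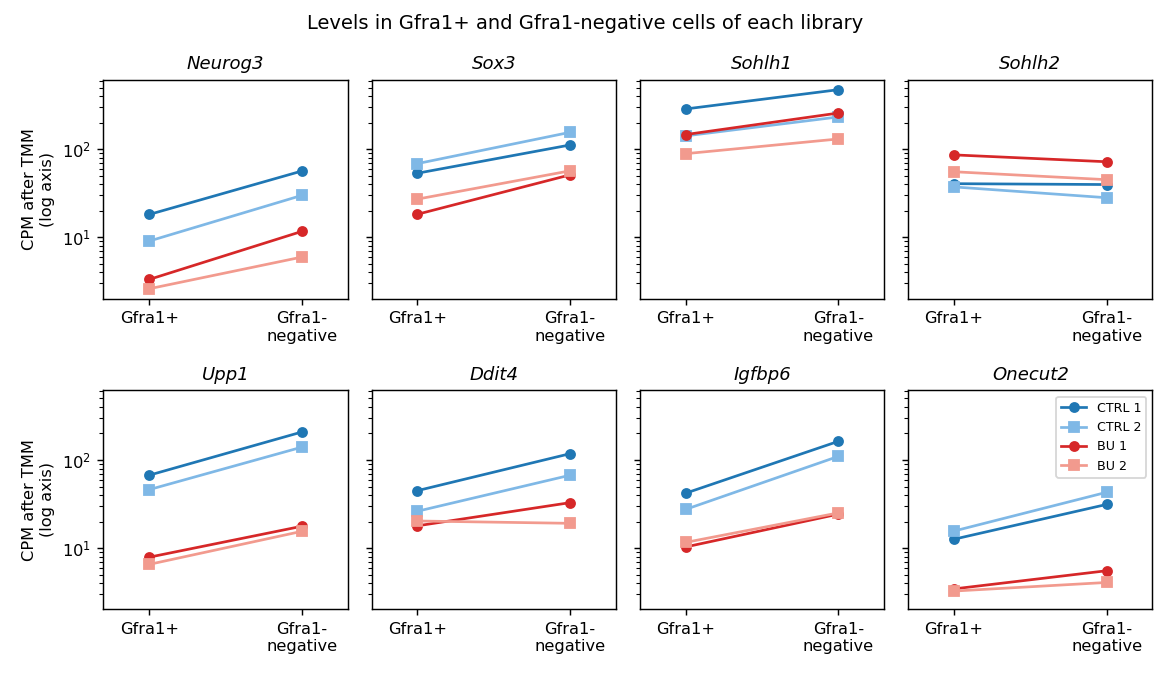
Level of each gene in Gfra1+ and Gfra1-negative cells of each library, in CPM after TMM scaling on a log axis, with a line joining the 2 levels of a library (blue CTRL, red BU). For Neurog3, Sox3, Upp1, Ddit4, Igfbp6 and Onecut2 the BU lines lie below the CTRL lines at both ends. For Sohlh1 the groups overlap, and for Sohlh2 the lines are nearly flat and BU is above.

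Igfbp6 had the largest difference between the states in CTRL, from 42.0 and 27.5 CPM in Gfra1+ cells to 163 and 110 CPM in Gfra1-negative cells (log2 fold change 1.98, SE 0.11). Neurog3 followed with 18.2 and 9.08 CPM against 56.7 and 30.0 CPM (1.68, SE 0.22). Upp1, with the levels given above, had a log2 fold change of 1.62 (SE 0.10). In each of these the 2 Gfra1-negative sums lay above both Gfra1+ sums.

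The log2 fold changes of Onecut2, Ddit4, Sox3 and Sohlh1 in CTRL were 1.39, 1.38, 1.12 and 0.72. Sohlh2 was at 40.7 and 37.4 CPM in Gfra1+ cells and 39.8 and 28.2 CPM in Gfra1-negative cells (-0.22, SE 0.14). With the shared barcodes left out of both libraries, the log2 fold changes of Igfbp6, Upp1 and Neurog3 were 2.06, 1.73 and 1.79. Spermatid markers were also higher in Gfra1-negative cells (median log2 fold change 2.40 in CTRL and 2.67 in BU), and without the cells rich in them Igfbp6 was at 1.99 and Neurog3 at 1.72 in CTRL.

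In BU the log2 fold change between the states was 1.49 for Neurog3 (SE 0.23), 1.27 for Sox3 (SE 0.14), 1.21 for Upp1 (SE 0.10), 1.17 for Igfbp6 (SE 0.11) and 0.68 for Sohlh1 (SE 0.09). Onecut2 was at 3.44 and 3.25 CPM in Gfra1+ and 5.53 and 4.07 CPM in Gfra1-negative cells (0.49, SE 0.20). Ddit4 was at 17.9 and 20.3 CPM against 32.8 and 19.1 CPM (0.38, SE 0.25), with BU 1 and BU 2 in opposite directions.

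The difference between BU and CTRL in this step was -1.0 for Ddit4 (SE 0.36), -0.90 for Onecut2 (SE 0.28), -0.81 for Igfbp6 (SE 0.15) and -0.41 for Upp1 (SE 0.14). Both sides of this difference were part of the choice of the genes, so these values too are a description and carry no test. Over all genes, edgeR called none (810 of 16753 at an unadjusted p), so a smaller step in BU was not established. Neurog3, Sox3, Sohlh1 and Sohlh2 differed by -0.19, 0.15, -0.04 and -0.06.

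Cells past the threshold of Gfra1+ cells applied to Kit (Kit+) were then set against the other Gfra1-negative cells (Kit-negative). The choice of the genes does not name this comparison. The sort removed cells with c-KIT protein on the surface, so Kit+ cells are cells with Kit RNA that passed that sort. There were 31 Kit+ Gfra1-negative cells in each CTRL library and 280 and 132 in BU 1 and BU 2, so the BU libraries carry most of the counts. Any Kit UMI was found in 33 and 294 Gfra1-negative cells of CTRL 1 and BU 1, but in 94 and 238 of CTRL 2 and BU 2. Kit-negative cells of experiment 2 therefore include many with some Kit RNA. With a term for each library, edgeR called 1872 of 15334 genes (12.2%), 1562 of them lower in Kit+ cells (10.2%) and 310 higher (2.02%). Upp1, Ddit4 and Igfbp6 were lower in Kit+ cells, and none of the 5 transcription factor genes passed.

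Igfbp6 was at 182 and 116 CPM in Kit-negative and 66.7 and 29.7 CPM in Kit+ cells of CTRL, and at 32.2 and 30.2 against 4.77 and 4.48 CPM in BU. It was lower in Kit+ cells in 4 of 4 libraries (log2 fold change -2.22, SE 0.28, adjusted p = 0.00888, edgeR). Ddit4 was at 131 and 70.9 against 89.0 and 24.0 CPM in CTRL and at 40.6 and 21.2 against 15 and 9.27 CPM in BU, also lower in 4 of 4 libraries (-1.19, SE 0.25, adjusted p = 0.0173).

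Upp1 was at 230 and 148 against 222 and 38.4 CPM in CTRL and at 22.0 and 18.4 against 8.17 and 3.52 CPM in BU (-1.42, SE 0.35, adjusted p = 0.0274). In CTRL 1 its levels in Kit-negative and Kit+ cells were nearly equal, and in the other 3 libraries the Kit+ level was the lower one. With the Kit step fitted separately in each condition, a fit added after the values were seen, edgeR called 3139 of 15334 genes in BU (20.5%, lower 17.0%) and 137 in CTRL (0.893%, lower 0.437%). Upp1, Ddit4 and Igfbp6 were among the lower ones in BU (log2 fold change -1.91, -1.32 and -2.75, adjusted p = 0.00283, 0.0163 and 1.36e-04) and Igfbp6 in CTRL (-1.72, adjusted p = 0.0294). Without CTRL 1 the number of genes called in the fit over both conditions was 0 and the adjusted p of Upp1, Ddit4 and Igfbp6 was 0.107 each, and without the library term it was also 0, with 0.299, 0.234 and 0.157. Upp1 also passed the threshold no longer without TMM (0.0662), without cells rich in spermatid or somatic RNA (0.0554), with any Kit UMI as the gate (0.0561) and without CTRL 2 (0.144), where Ddit4 had 0.0627.

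**Figure D3:**
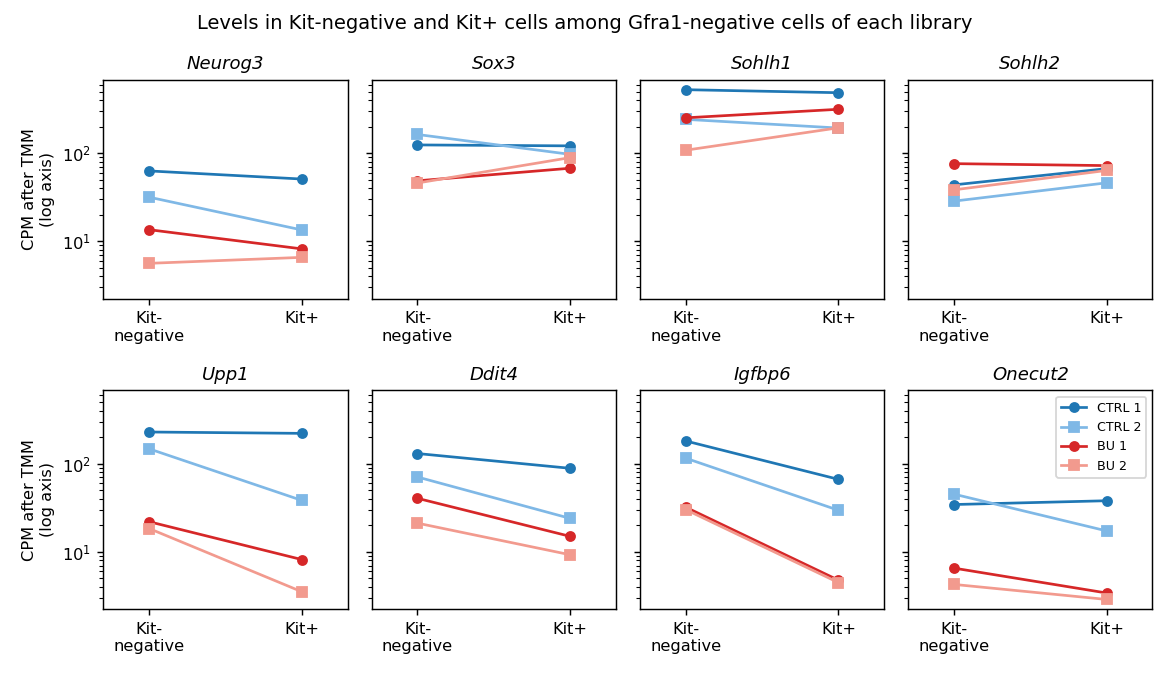
Level of each gene in Kit-negative and Kit+ cells among the Gfra1-negative cells of each library, in CPM after TMM scaling on a log axis, with a line joining the 2 levels of a library (blue CTRL, red BU). Igfbp6 and Ddit4 descend in all 4 libraries, Upp1 is nearly flat in CTRL 1, and Sox3 and Sohlh1 ascend in BU and not in CTRL.

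Of the transcription factors, Sohlh2 had a log2 fold change of 0.48 (SE 0.24, adjusted p = 0.207), Neurog3 -0.49 (SE 0.32, adjusted p = 0.337), Onecut2 -0.70 (SE 0.34, adjusted p = 0.203), Sox3 0.18 (SE 0.27, adjusted p = 0.712) and Sohlh1 0.19 (SE 0.21, adjusted p = 0.594). Stra8, a target of retinoic acid, was higher in the Kit+ cells (2.49, SE 0.30, adjusted p = 0.00663), 6 of 11 stem markers were lower, such as Pdx1 (-3.19, SE 0.73, adjusted p = 0.0228) and Foxc2 (-2.31, SE 0.36, adjusted p = 0.0108), and of 10 other progenitor genes Nanos3 was lower (-1.24, SE 0.34, adjusted p = 0.0395) and Rhox13 higher (0.99, SE 0.26, adjusted p = 0.0352). Of the mTORC1 inputs Mtor was higher (1.03, SE 0.22, adjusted p = 0.0190), of the IGF axis Igfbp2 (0.65, SE 0.18, adjusted p = 0.0397). Prdm9, a differentiation entry gene, was also higher (2.34, adjusted p = 0.0292, edgeR). Among basic helix-loop-helix partners and inhibitors, Id4 and Id3 were lower (-1.79 and -1.72, adjusted p = 0.0108 and 0.0226) and Id2 higher (1.83, adjusted p = 0.0352). Sox12 was higher (1.18, adjusted p = 0.0350) and Sox1 lower (-3.44, adjusted p = 0.0373). The mean of Sox1 over the Kit-negative and Kit+ sums was only 1.06 CPM. Over all genes 12.2% were called. The 8 genes and these lists were chosen with earlier results of these data known. The calls and p-values of the lists are therefore a description. Spermatid markers were lower in Kit+ cells for 6 of 8 genes.

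For shares of cells at a common depth, 5000 UMIs were drawn from every cell (thinned cells), and the 276, 114, 80 and 95 shallower cells of CTRL 1, CTRL 2, BU 1 and BU 2 were left out. Upp1 had a UMI in 46.5% and 36.3% of thinned CTRL cells and in 6.02% and 4.62% of thinned BU cells. The exact 95% binomial intervals were 44.7 to 48.4% and 33.3 to 39.3% in CTRL, and 5.0 to 7.17% and 3.49 to 5.98% in BU, and they cover counting error only. Depth can turn the order of libraries, as for Neurog3 in Gfra1-negative cells, found in 29.9% and 43.0% of unthinned cells of CTRL 1 and CTRL 2 and in 20.7% and 14.2% of thinned ones. Unthinned, Upp1 had a UMI in 55.9% and 60.9% of CTRL and 10.2% and 17.6% of BU cells.

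Neurog3 had a UMI in 18.5% and 11.9% of thinned CTRL cells and 3.53% and 1.88% of thinned BU cells. Sohlh1 was found in 79.9% and 57.7% of CTRL and 56.0% and 36.5% of BU cells, and Sohlh2 in 17.1% and 14.4% of CTRL and 32.4% and 20.8% of BU cells. Onecut2 was found in 10.8% and 13.4% of CTRL and 2.18% and 1.37% of BU cells. For Sohlh1 the BU 1 share lay just below that of CTRL 2, where its summed level lay just above.

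As a measure of free RNA in droplets, the same shares were taken in cells with over 5% of UMIs from spermatid markers, which should lack the 8 genes. In CTRL 2 (82 thinned cells, median 23037 UMIs unthinned against 30931 over all cells) the shares were 1.22 to 7.32%, highest for Upp1. In BU 2 (54 thinned cells, medians 29910 and 34176) Neurog3, Sox3, Upp1, Ddit4, Igfbp6 and Onecut2 were found in 0 of 54 cells, which allows a share of up to 5.56%. The thinned BU 2 shares of Neurog3, Upp1 and Onecut2 over all cells lie under that limit and are not distinguishable from background at this depth and number of cells. Unthinned, these genes were found in 0% of the 62 spermatid-rich cells of BU 2. Over all unthinned BU 2 cells they were found in 9.73% (Neurog3), 17.6% (Upp1) and 7.12% (Onecut2). In CTRL 1 the limit was 9.68% (31 cells), and BU 1 had only 7 such cells. Cells rich in somatic RNA (over 0.1% of UMIs from somatic markers) also held Ddit4 and Igfbp6. Thinned, Ddit4 was in 8 of 25 such cells of CTRL 2 and 8 of 54 of BU 2. Over all cells its shares were 22.5% and 8.04%. Igfbp6 was in 4 of 25 and 7 of 54, against 29.8% and 7.36%. The other genes lay at 0 to 8.00% in CTRL 2 and 0 to 3.70% in BU 2. The part of these cells in the shares of Ddit4 and Igfbp6 was not tested.

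Many control cells carried RNA of several of the 8 genes at once. None of the 8 was found in 8.67% and 21.5% of thinned CTRL cells and in 22.7% and 39.9% of thinned BU cells. The mean number of the 8 with a UMI per thinned cell was 2.81 and 2.27 in CTRL and 1.31 and 0.967 in BU. At least 4 of the 8 were found together in 35.9% and 26.3% of CTRL cells (1015 of 2825 and 265 of 1006) and in 4.30% and 2.74% of BU cells (83 of 1928 and 32 of 1169). No thinned cell held all 8.

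Within Gfra1-negative cells 41.8% and 32.0% of CTRL cells and 6.30% and 3.73% of BU cells held at least 4. Within Gfra1+ cells the shares were 10.0% and 4.78% in CTRL and 1.77% and 1.52% in BU. Both kinds of cell therefore had fewer cells with many of the genes in BU than in CTRL, in each experiment. Kit+ Gfra1-negative cells of BU had a mean of 1.51 and 1.26 genes, against 1.53 and 1.09 over all Gfra1-negative BU cells.

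**Figure D4:**
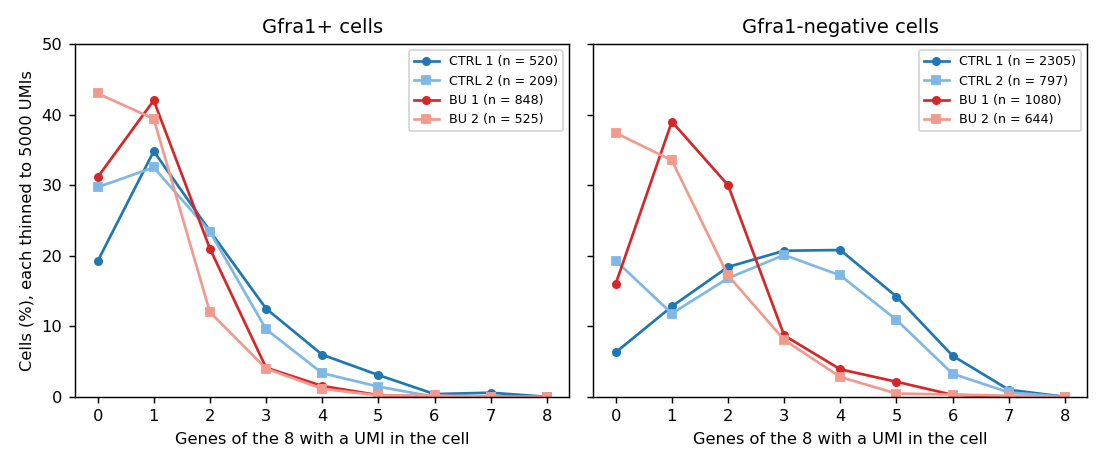
Share of thinned cells (%) by the number of the 8 genes with a UMI, for Gfra1+ (left) and Gfra1-negative cells (right), with 1 line per library and the number of cells in the key. In Gfra1-negative cells the CTRL lines peak at 3 or 4 genes (20.8% with 4 in CTRL 1 and 20.1% with 3 in CTRL 2), while the BU lines peak at 0 or 1. CTRL 2 has a near-equal share, 19.3%, with 0 genes.

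Pairs of the genes without Sohlh2 were found in the same thinned cell more often than the product of their shares, while pairs with Sohlh2 varied between libraries. All 21 pairs without Sohlh2 had an observed to expected ratio above 1 in all 4 libraries, with medians of 1.35 and 1.47 in CTRL and 2.13 and 2.81 in BU. The 7 pairs with Sohlh2 had medians of 0.930 and 0.983 in CTRL and 0.784 and 1.06 in BU, and its pairs with Upp1, Ddit4 and Igfbp6 lay below 1 in all 4 libraries. Of these 7 pairs, 0 lay above 1 in CTRL 1 and BU 1, 2 in CTRL 2 and 4 in BU 2. In unthinned cells all 28 pairs lay above 1 in CTRL 2 and in BU 2. These ratios are a description over cells of 1 library, which share its preparation. The genes were chosen with earlier results of these data known, and no pairs of other genes were counted beside them. Nothing is therefore read from the counts of pairs.

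**Figure D5:**
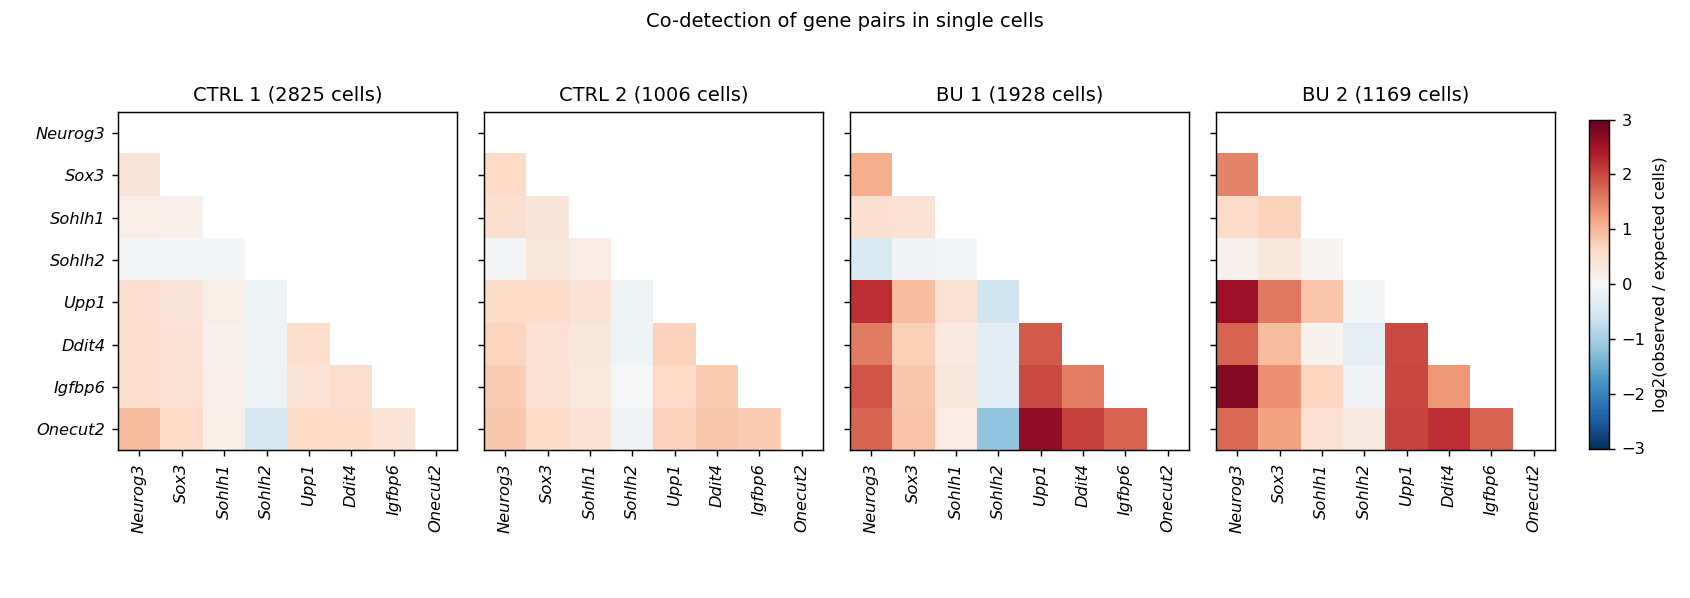
Co-detection of each pair of the 8 genes in thinned cells of each library, as the log2 of observed over expected cells, where red is above and blue below the product of the shares. The Sohlh2 row and column stay near 0 or below in CTRL 1 and BU 1, and the darkest squares lie in BU among Neurog3, Upp1, Igfbp6 and Onecut2, where counts are small.

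Upp1 and Neurog3 were found together in 342 of 2825 cells of CTRL 1 (243 expected, ratio 1.41) and 64 of 1006 cells of CTRL 2 (43.5 expected, 1.47). In BU they were found together in 19 of 1928 cells (4.09 expected, 4.64) and 6 of 1169 cells (1.02 expected, 5.90). Upp1 and Ddit4 had 621 and 132 joint cells in CTRL (ratios 1.43 and 1.61) and 43 and 17 in BU (3.56 and 3.92). The ratio can reach higher values where both genes are rare, so its size in BU is not set against that in CTRL.

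The same ratios were taken within Gfra1-negative and within Gfra1+ cells, each of which can still mix kinds of cell. In Gfra1-negative cells alone, Neurog3 and Upp1 had ratios of 1.27 and 1.32 in CTRL and 4.05 and 5.08 in BU, the last from 4 joint cells. Of all 28 pairs, 20 were above 1 in all 4 libraries in Gfra1-negative cells and 17 in Gfra1+ cells. Without cells rich in spermatid or somatic RNA the count over all cells was 21, as in the main count, and this was not run within the states.

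Among 6975 genes with a mean of at least 20 CPM, those outside the 8 whose log level across cells was most like the mean of the 8 were Psmb10 (mean Pearson r 0.54 over the 4 libraries), Eif4ebp1 (0.53), Uchl1 (0.52), Egr4 (0.52), Phlda2 (0.49), Agpat5 (0.49), Pmm1 (0.49), D10Wsu102e (0.48), Nanos3 (0.48) and Iah1 (0.47). The r of Psmb10 was 0.53 and 0.80 in CTRL and 0.31 and 0.50 in BU, over 3101, 1120, 2008 and 1264 cells that share library and depth. Psmb10 is an immunoproteasome subunit, Eif4ebp1 a translation repressor that mTORC1 phosphorylates and Uchl1 a deubiquitinase of spermatogonia.

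With the 8 genes themselves left out of the ranking, nearest to single genes were Phlda2 for Neurog3 (0.31) and Onecut2 (0.28), Eif4ebp1 for Sox3 (0.43), Uchl1 for Sohlh1 (0.59), Nanos3 for Upp1 (0.43), Idnk for Ddit4 (0.36) and Egr4 for Igfbp6 (0.40). Sohlh2 had Dazl (0.30), Ppa1 (0.29) and Dmrt1 (0.29). With Gfra1 itself, Upp1 had an r of -0.30 and -0.23 in CTRL and -0.11 and -0.09 in BU, and Sohlh2 of -0.02 and 0.17 in CTRL and 0.03 and 0.16 in BU. Values in experiment 2 rest on deeper cells and on a larger share of spermatid-rich cells.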

How the data were processed

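Sorted A_undiff were measured by droplet-based 3′ single-cell RNA-seq in 4 libraries, CTRL and BU of 2 experiments. The authors deposited raw UMI counts per gene and cell as filtered Cell Ranger output (3.0.2 in the matrix headers). The study's methods name mm10, and the submitters' processing notes name GRCm39, Cell Ranger and Seurat 3.2. Per the labels the kit was version 2 in experiment 1 and version 3.1 in experiment 2. Gene positions are those of GENCODE M21 (GRCm38). Totals were 26802228 (CTRL 1), 21136369 (BU 1), 39904588 (CTRL 2) and 53579969 (BU 2) UMIs, and 3101, 2008, 1120 and 1264 cells passed. With n = 2 the number of libraries limits precision.

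UMIs were summed per library and cell state and tested with edgeR 4.0.16 (filterByExpr, TMM, quasi-likelihood, Benjamini-Hochberg at 0.05, R 4.3.3). BU against CTRL had condition only, and comparisons within libraries had a term per library. DESeq2 1.42.0 was an alternative. Short forms of the edgeR fits were run on counts simulated with a lower dispersion than the main fits had. How the fits perform at the spread of these data was therefore not tested. Cells were handled with scanpy 1.11.5, numpy 2.4.6, scipy 1.17.1 and pandas 2.3.3 (Python 3.11.15), and figures drawn with matplotlib 3.10.9. Kit+ cells passed the threshold of Gfra1+ cells applied to Kit. Doublets were kept in the main values. As an alternative 132 cells were removed at the expected rate of 0.8% per 1000 cells, since scrublet's own threshold marked 1 to 7 cells a library. Cells rich in spermatid (over 1% of UMIs) or somatic (over 0.1%) markers were left out as an alternative; these limits and those on shared barcodes were set after the values were seen.

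CTRL and BU of an experiment shared a lane and a kit, so the numbers pair them. Deviations of same-numbered libraries correlated at 0.784 over genes. In a principal component analysis the leading axis (69.0% of variance) separated the experiments and the next (24.8%) the conditions. The 8 genes and all gene lists were chosen with earlier results of these data known. Other genes of a list are named by up to 4 of the largest changes past the threshold, or with none past it the highest expressed. Igf2 is named besides, as the ligand of IGFBP6. Nearest genes are named by mean r over libraries at 20 CPM or more.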

Additional observations from a re-analysis of the deposited data

Results flagged for a closer look

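The Kit+ against Kit-negative difference of Sox3 and Sohlh1 among Gfra1-negative cells was negative in both CTRL libraries and positive in both BU libraries. Sox3, the progenitor factor, had log2 ratios of -0.04 and -0.75 in CTRL and 0.48 and 0.96 in BU, so the mean ratio was 1.11 higher in BU than in CTRL. Sohlh1 had -0.11 and -0.33 in CTRL and 0.32 and 0.84 in BU, a mean ratio 0.80 higher in BU. A test of the difference itself, added after these values were seen, gave 1.14 for Sox3 (SE 0.45, unadjusted p = 0.0185, adjusted p = 0.451, edgeR) and 0.80 for Sohlh1 (SE 0.34, unadjusted p = 0.0269, adjusted p = 0.513), so neither passed. Each CTRL library held 31 Kit+ cells.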

How the results depend on the processing

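The direction of all 8 genes in BU against CTRL held under every alternative run, from -3.95 to -3.30 for Upp1 and from 0.32 to 1.21 for Sohlh2 on the log2 scale. Counts of genes called depended more on the fit. For BU against CTRL in all cells, where the main count was 0, the replicate block gave 258, DESeq2 120 and leaving out a library 0 to 96. In Gfra1+ cells the block gave 10, DESeq2 15, no filter on low counts 49 and leaving out a library 0 to 25. In Gfra1-negative cells DESeq2 gave 60 and leaving out a library 0 to 32, and the block gave 0. The largest counts without a library were those without BU 2 (96) in all cells and without BU 1 (25 and 32) in the states. For Gfra1-negative against Gfra1+ cells, where the main counts were 0, DESeq2 gave 1006 in CTRL and 1621 in BU, the shared barcodes left out of both libraries 617 and 2684, cells rich in spermatid or somatic RNA left out 3 in CTRL, and any Gfra1 UMI as the gate 2267 in BU. For Kit+ against Kit-negative cells (1872) the fit without the library term, that is without a replicate block, gave 0, no TMM 1239, any Kit UMI 661 and leaving out a library 0 to 1616. Beside these counts and the calls in the text, the replicate block or its absence changed no call of the 8 genes. The cause of these moves was not tested.

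Single genes turned sign where their value was near 0. In BU, Ddit4 in Gfra1-negative against Gfra1+ cells was -0.07 without BU 1, in a range of -0.07 to 0.88 over libraries left out. In the difference of that step between BU and CTRL, Neurog3 was 0.13 without BU 2 (range -0.50 to 0.13), Sox3 -0.07 without BU 1 (-0.07 to 0.37), Sohlh1 0.02 with DESeq2, 0.09 without TMM, 0.02 with any Gfra1 UMI and 0.09 without BU 2 (-0.18 to 0.09), and Sohlh2 0.07 without TMM and 0.16 without CTRL 1 (-0.26 to 0.16). In the Kit comparison Sox3 was -0.05 without BU 2 (-0.05 to 0.51). The number of gene pairs found together above expectation in all libraries was 18 to 23 of 28. Where a fit left 1 library in a group, that library was assumed to vary like the others. Depth limits the rare genes: in BU 2 the thinned shares of Neurog3 and Onecut2 rest on 22 and 16 cells.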
